A study of Mus musculus with 24 samples.

Results

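Adig, Lpin3 and Abhd12 are mouse chromosome 2 genes that act in fat cells or on lipids, chosen with earlier results of these data known. They were 3 of the 341 genes measured. They comprised 56 of 3919 exon rows, which gave 38 of 3099 exon features once rows with the same coordinates were averaged, and 174 of the 13388 probes in the authors' value table. Adig held 3 exon features and 15 probes, Lpin3 22 exon features and 120 probes, and Abhd12 13 exon features and 39 probes. By the positions in the files, whose build is not given in the sources used here, Abhd12 lies on chromosome 2 from 150895830 to 150968047 on the minus strand. Adig lies from 158565960 to 158571547 and Lpin3 from 160944081 to 160969141, both on the plus strand.

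Adig encodes adipogenin, a small membrane protein of adipocytes that is induced as precursor cells turn into fat cells. Lpin3 encodes lipin 3, of the lipin family of phosphatidate phosphatases, which turn phosphatidic acid into the diacylglycerol used for triglyceride and phospholipid synthesis. Abhd12 encodes a membrane-bound serine hydrolase that breaks down lysophosphatidylserine and can hydrolyse the endocannabinoid 2-arachidonoylglycerol, and its loss in humans causes a disorder of nerves, hearing and sight.

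The series set B6 mice against B6.S-2 congenic mice, a congenic strain being one that carries a stretch of chromosome from a donor strain on another background. Total RNA of gastrocnemius muscle, epididymal white adipose tissue, liver and whole brain was hybridised to a custom 12-well NimbleGen array, with 3 samples in each of the 8 groups of genotype and tissue. The labels call all 24 samples congenic in the treatment field, so the genotype rests on the titles. The growth protocol names the mice as F2, mentions chow for all mice and a high fat diet for one group of congenic males, and ties no sample to a diet, a sex or an age. The ends of the donor segment are not stated, so whether each of the 3 genes lies inside it is not known here. Levels are log2 intensities after background correction and quantile normalization, differences are given on that log2 scale with the SE that limma fitted, and a call means a Benjamini-Hochberg adjusted p under 0.05 over all genes, exon features or probes fitted.

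Arrays differed in brightness, with median raw intensities from 232 to 3571. Brain and liver shared slide 1 while adipose tissue and muscle shared slide 2. Between those pairs, tissue and slide cannot be told apart, so brain is set against liver and adipose tissue against muscle below. Of 4 measured hepatocyte markers, 3 were above the other tissues in liver, as 16.1% of genes were. Contrasts of 1 tissue with the other tissues cross the slides. Within a slide, 5 of 7 neuronal markers were higher and 4 of 4 hepatocyte markers lower in brain than in liver, against 17.3% and 17% of genes. Both measured skeletal muscle markers, Tnnc2 and Mylk2, were lower in adipose tissue than in muscle, as 19.4% of genes were. Besides Adig, itself under study here, 2 adipocyte markers were measured. Pltp was above the other tissues in adipose tissue, as 19.1% of genes were, and Lep did not pass the test. Adipoq, Fabp4, Plin1, Cidec and Cebpb were not among the genes measured. Genes of epididymis, testis and seminal vesicle, organs next to the epididymal fat pad, were above the other tissues in adipose tissue for 10 of 12 measured. Congenic adipose replicate 1 and congenic muscle replicate 3 stood apart, with a Svs4 level of 11.90 and 12.39. Many of the genotype results that these arrays touch are given below with and without them, and the rest over all arrays only. In the value table, whose columns do not follow the replicate numbers of the scanner files (17 of 24 files were closest to another replicate of their group), Svs4 was highest in the columns of congenic adipose replicate 3 and congenic muscle replicate 1, and those were left out there.

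Adig was the gene of the 3 that differed between genotypes: its level fell in congenic adipose tissue. In B6 adipose tissue the gene-level log2 intensities were 11.27, 11.24 and 11.39. In congenic adipose tissue they were 10.92, 10.94 and 10.86. The groups did not overlap, and both lay above the 18 samples of the other tissues, which ran from 10.43 to 10.77. A separation of this kind with the congenic samples lower was found for 8.8% of the 341 genes in adipose tissue. The difference was -0.39 ± 0.08 (SE, n = 3 per genotype), a 1.31-fold lower level (limma adjusted p = 0.00860). It was 1 of 5 genes called in adipose tissue, or 1.47% of those tested, while the median difference over all genes was 0.00.

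**Figure D1:**
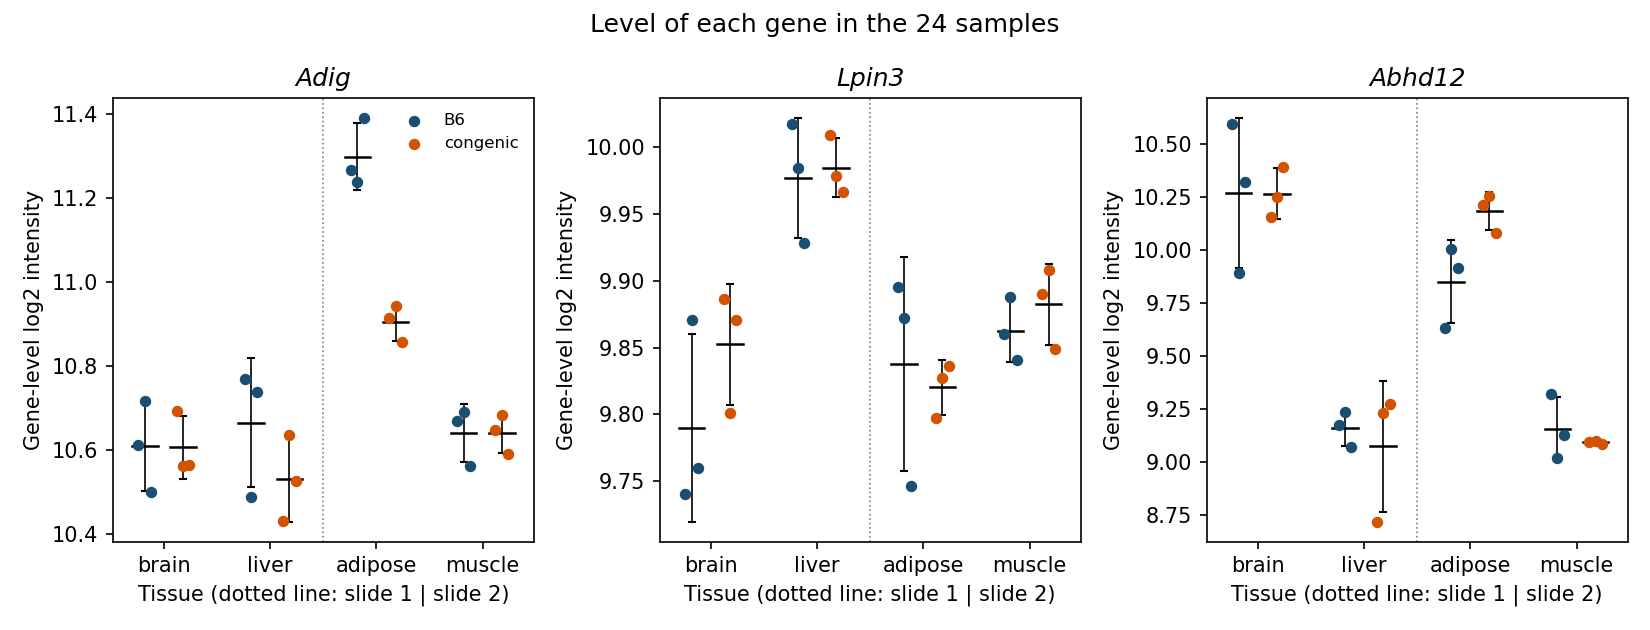
Gene-level log2 intensity of Adig, Lpin3 and Abhd12 (vertical axes, each with its own range that does not start at 0) in the 24 samples by tissue. Blue points are B6 and orange points congenic samples, black lines are group means and bars the SD (n = 3). The congenic adipose samples of Adig, at 10.86 to 10.94, lie between B6 adipose tissue and all other samples, Lpin3 varies over less than the other genes and is highest in liver, and Abhd12 is high in brain and adipose tissue.

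The genotype difference of Adig was -0.00 ± 0.08 in brain, -0.13 ± 0.08 in liver and 0.00 ± 0.08 in muscle (limma adjusted p = 0.991, 0.509 and 0.999), where the percentages of genes called were 0.88, 0.88 and 0.587. Averaged over the 4 tissues it was -0.13 ± 0.04, which did not pass (limma adjusted p = 0.0684, with 2.05% of genes called). This mean ran from -0.14 to -0.05 over 10 alternatives, none of which passed, and it passed when 1 of 4 single arrays of brain or liver was left out, B6 brain replicate 3, congenic brain replicate 1, B6 liver replicate 2 or congenic liver replicate 2 (limma adjusted p = 0.0477, 0.0408, 0.0179 and 0.0370). Without the 2 arrays high in Svs4 it was -0.13 (limma adjusted p = 0.161). The test of whether the genotype difference varies between tissues gave an unadjusted p of 0.00487 for Adig and an adjusted p of 0.248, with 0.293% of genes called, so a difference particular to adipose tissue was not called. The contrast of adipose tissue against muscle alone, chosen after the values were seen, was -0.39 ± 0.11 (limma adjusted p = 0.547), and 0% of genes were called in it. In bulk tissue, fewer adipocytes and less Adig RNA per adipocyte cannot be told apart. Whether the donor sequence differs from B6 under the Adig probes was not tested.

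The call for Adig in adipose tissue was lost without B6 adipose replicate 3 (-0.35, limma adjusted p = 0.0508) and without congenic adipose replicate 3 (-0.37, limma adjusted p = 0.0762). It was also lost in a fit with the replicate number as a block within tissue (limma adjusted p = 0.0616), and in adipose tissue the same-numbered B6 and congenic arrays lay in the same well row of the slide. With the well row within slide as the block it passed (limma adjusted p = 0.00434). Without congenic adipose replicate 1 and congenic muscle replicate 3 the adipose difference was -0.40 (limma adjusted p = 0.0262). The mean level of the 12 epididymis, testis and seminal vesicle genes ran from 10.09 to 10.44 in B6 and from 10.49 to 10.99 in congenic adipose tissue, and 0 of the 12 were called between genotypes there. The mean level of the adipocyte markers Lep and Pltp ran from 9.59 to 9.65 in B6 and from 9.71 to 9.91 in congenic adipose tissue, and neither was called over all arrays. Pltp, the phospholipid transfer protein of plasma lipoproteins, had a difference of 0.45 ± 0.12 (limma adjusted p = 0.0675), which passed at 0.54 without the 2 arrays high in Svs4 (limma adjusted p = 0.0290), and Lep, the gene of leptin, -0.04 ± 0.16 (limma adjusted p = 0.999). The part of these marker levels in the Adig result was not tested.

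Across tissues and both genotypes together, Adig was 0.46 ± 0.05 higher in adipose tissue than in muscle (limma adjusted p = 7.6e-07), on the slide that holds both tissues, where 15.8% of genes were higher in adipose tissue. The excess was 0.66 ± 0.08 within B6 and 0.26 ± 0.08 within congenic samples (limma adjusted p = 8.9e-07 and 0.0154), where 11.4% and 10.3% of genes were higher. Brain and liver, on the other slide, differed by 0.01 ± 0.05 (limma adjusted p = 0.931). Across the slides, Adig was -0.49 ± 0.05 in brain and -0.50 ± 0.05 in liver against adipose tissue (limma adjusted p = 2.1e-07 for each). Neither brain nor liver differed from muscle past the threshold (limma adjusted p = 0.667 and 0.570). In these comparisons tissue and slide cannot be told apart.

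The exons of Adig did not carry these differences equally. Exon 2 (158569140 to 158569270) and exon 3 (158571303 to 158571547) were higher in adipose tissue than in muscle by 0.46 ± 0.10 and 0.62 ± 0.09 (limma adjusted p = 0.00103 and 2e-05), against 12.5% of exon features called higher. Exon 1 (158565960 to 158566218) differed by 0.01 ± 0.17 (limma adjusted p = 0.973). Each exon value is a mean over its probes on the linear scale. In the authors' value table, probe 2, the brightest of exon 1, differed by 0.10 ± 0.23 (limma adjusted p = 0.884). Probe 3 of exon 1 differed by 0.68 ± 0.22 (limma adjusted p = 0.0307), and its remaining probes did not pass. The test for unequal differences among the exons of a gene (limma diffSplice) passed for Adig between adipose tissue and muscle (adjusted p = 0.00730), as it did for 64.3% of 314 genes. It also passed between brain and liver (limma diffSplice adjusted p = 0.00314), as it did for 68.8% of genes.

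Between genotypes in adipose tissue, exon 1 differed by -0.19 ± 0.24, exon 2 by -0.44 ± 0.14 and exon 3 by -0.49 ± 0.13. None passed over all 3099 exon features (limma adjusted p = 1, 0.386 and 0.149), where 0.419% were called. For exon 3 the B6 samples were at 11.67, 11.25 and 11.42 and the congenic samples at 10.92, 11.09 and 10.86, and for exon 2 the B6 samples were at 10.54, 10.52 and 10.67 and the congenic samples at 10.05, 10.22 and 10.15. The genotypes did not overlap in either exon, and a separation with the congenic samples lower was found for 6.81% of exon features. In exon 1 they did, with B6 at 11.12, 10.74 and 11.31 and congenic samples at 10.97, 10.79 and 10.83. Without the 2 arrays high in Svs4 the 3 differences were -0.25, -0.39 and -0.47, and none passed. Unequal differences among the exons were not called between genotypes in adipose tissue (limma diffSplice adjusted p = 1, with 0.955% of genes called).

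The plot of the 15 Adig probes shows which probes carried the adipose signal. In the authors' value table, 7 of the 15 probes were higher in adipose tissue than in muscle, against 8.53% of all probes. These were probe 3 in exon 1, probes 6, 7 and 8 in exon 2 and probes 11, 13 and 14 in exon 3, numbered in the order of their identifiers. The congenic minus B6 difference in adipose tissue had a median of -1.08 over these 7 probes, from -1.78 to -0.28, and was negative for all 7. Over the other 8 probes its median was -0.34, from -0.89 to 0.02, and it was negative for 7. The 7 probes were picked with the same adipose samples that enter the genotype difference, so setting them against the other 8 is a description only. Probe 3 was above muscle in B6 alone, with means of 10.14 and 8.34, against 8.36 and 8.80 in congenic samples. Across the 15 probes, the excess in adipose tissue and the genotype difference had a Pearson correlation of -0.63. It too is a description, since both use the B6 and congenic adipose samples.

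**Figure D2:**
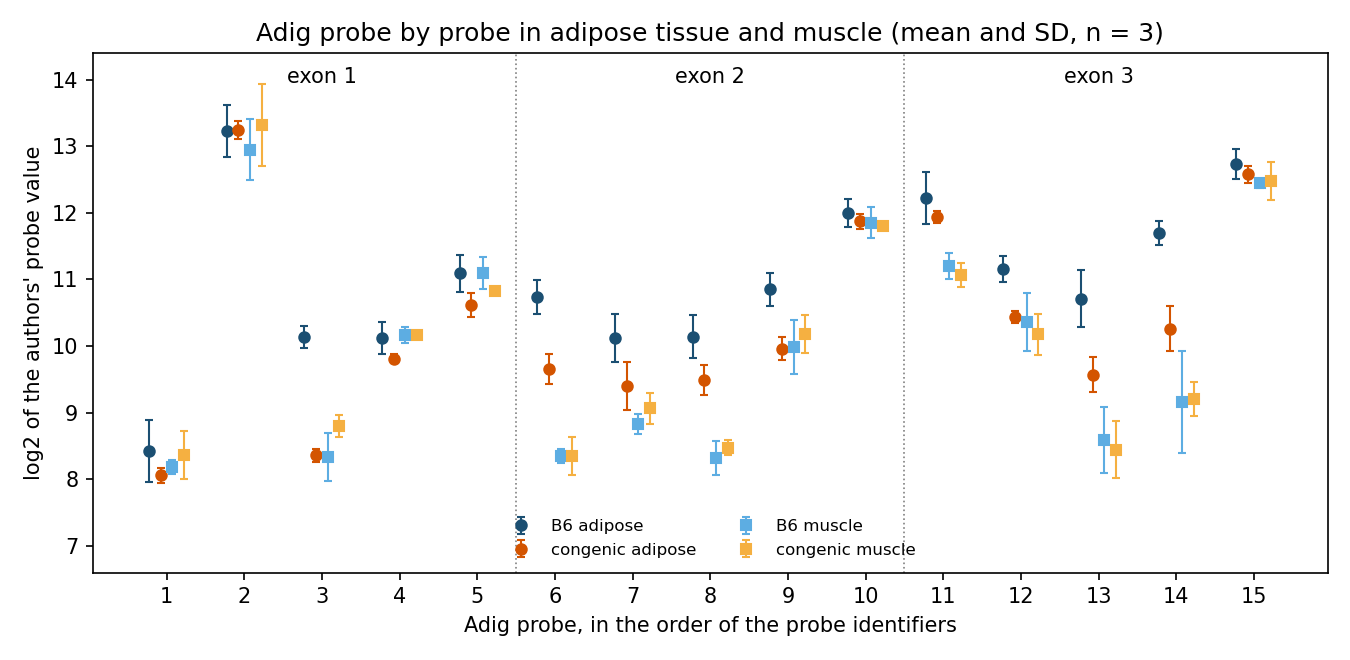
log2 of the authors' value for each of the 15 Adig probes (horizontal axis, 5 probes per exon) in B6 and congenic adipose tissue (circles) and muscle (squares), as mean and SD with n = 3. Probes such as 3, 6 and 14 are high in B6 adipose tissue and lower in congenic adipose tissue, while probes such as 2, 10 and 15 lie close together in the 4 groups.

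Probe 3 of Adig was the only one of the 15 called between genotypes in adipose tissue, where 0.396% of all probes were called lower. Its log2 values were 10.13, 9.97 and 10.31 in B6 adipose tissue and 8.46, 8.26 and 8.36 in congenic adipose tissue. The difference was -1.78 ± 0.31 (limma adjusted p = 0.00400), and -1.78 without the 2 columns high in Svs4 (limma adjusted p = 0.0312), an alternative chosen after seeing the data. In muscle the same probe read 8.60, 8.48 and 7.93 in B6 and 8.76, 8.98 and 8.66 in congenic samples, so its congenic adipose values lay within the range of the muscle samples. Probe 14 read 11.50, 11.81 and 11.80 in B6 and 10.14, 10.64 and 10.01 in congenic adipose tissue. Its difference of -1.44 ± 0.45 did not pass over all probes (limma adjusted p = 0.385), nor did that of probe 6, -1.08 ± 0.39 (limma adjusted p = 0.658). At probe 6 the congenic adipose samples, at 9.40 to 9.80, still lay above congenic muscle, at 8.11 to 8.67.

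Probe 5 of Adig separated the tissues of the 2 slides. It read 10.47 to 11.41 in the 6 adipose samples and 10.81 to 11.37 in the 6 muscle samples, all on slide 2. On slide 1 it read 7.19 to 8.15 in brain and 6.38 to 7.02 in liver, a difference of 1.06 ± 0.18 (limma adjusted p = 0.00021). Of the 15 probes, 1 was higher in brain than in liver, probe 5, and 1 was lower, probe 10 (-0.53 ± 0.17, limma adjusted p = 0.0297). These compare with 10% and 8.85% of all probes. At probe 5 the tissues of the 2 slides do not overlap, and tissue and slide cannot be told apart.

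RefSeq's promoter table (GRCm38.p6) matched 2 of the 3 genes. The 250 bases before the start of Adig, at chr2:158502362-158502611 on the plus strand of GRCm38.p6, are shown because Adig had the one genotype difference. The letters AGGTCA, a half-site that many nuclear receptors of fat cells recognise, were searched on both strands, and they are in capitals.
Adig: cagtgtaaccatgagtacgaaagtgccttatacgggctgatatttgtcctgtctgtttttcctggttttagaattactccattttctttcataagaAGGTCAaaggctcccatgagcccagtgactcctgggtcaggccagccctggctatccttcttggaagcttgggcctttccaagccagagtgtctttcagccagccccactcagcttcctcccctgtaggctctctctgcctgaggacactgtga
The window holds AGGTCA 1 time, on the strand shown, beginning 154 bases before the start. At least 1 match on either strand was found in the same 250 bases of 14% of the 32851 promoters in the table, so a match is common, and it is a description of the letters only.

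Abhd12 showed the largest tissue differences of the 3 genes. It was higher in brain than in liver by 1.15 ± 0.11, a 2.22-fold difference, and higher in adipose tissue than in muscle by 0.89 ± 0.11, a 1.86-fold difference (limma adjusted p = 3.6e-08 and 9.9e-07). The percentages of genes called higher in these comparisons were 17.3 and 15.8. The brain to liver difference was smallest, at 0.72, with no background correction and median scaling (limma adjusted p = 3.1e-07). The brain levels were 10.59, 9.89 and 10.32 in B6 and 10.15, 10.25 and 10.39 in congenic samples, on the gene-level log2 scale. Those in liver were 9.17, 9.23 and 9.07 in B6 and 8.72, 9.23 and 9.27 in congenic samples, and none reached a brain sample. Adipose tissue read 9.63, 10.01 and 9.91 in B6 and 10.21, 10.25 and 10.08 in congenic samples, all above muscle, which read 9.32, 9.02 and 9.13 in B6 and 9.10, 9.10 and 9.08 in congenic samples.

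In the order of the tissue means of Abhd12, brain and adipose tissue were neighbours that differed by 0.25 ± 0.11 and did not pass (limma adjusted p = 0.0681), and liver and muscle differed by -0.01 ± 0.11 (limma adjusted p = 0.971). Both of these comparisons cross the slides. The order held within each genotype: brain over liver was 1.11 ± 0.15 in B6 and 1.19 ± 0.15 in congenic samples, and adipose tissue over muscle was 0.70 ± 0.15 and 1.09 ± 0.15, all 4 past the threshold. Within brain and liver 10.9% of genes were higher in brain in B6 and 12.3% in congenic samples.

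Exon by exon, Abhd12 was higher in brain than in liver for 12 of 13 exon features, against 14.7% of all exon features. The largest differences were 2.05 ± 0.20 for exon feature 9 (150901630 to 150901710) and 2.00 ± 0.20 for the last, 13 (150895830 to 150896456). Exon feature 10 had 0.27 ± 0.17 and did not pass (limma adjusted p = 0.239). Between adipose tissue and muscle, 10 of the 13 were higher in adipose tissue, 1 was lower and 2 did not pass, against 12.5% of exon features higher and 16.1% lower. Unequal differences among the exons were called in both comparisons (limma diffSplice adjusted p = 9.3e-17 and 3.3e-23), as they were for 68.8% and 64.3% of genes.

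The exon feature of Abhd12 that went the other way was the first (150967704 to 150968047), with -1.06 ± 0.10 between adipose tissue and muscle (limma adjusted p = 4.2e-08). Its log2 intensities in muscle were 9.81, 9.83 and 9.78 in B6 and 9.89, 10.07 and 10.12 in congenic samples. In adipose tissue they were 8.71, 8.87 and 8.84 in B6 and 8.90, 8.99 and 8.82 in congenic samples. All muscle samples were above all adipose samples, the reverse of the gene as a whole. In the value table this came from 1 of its 3 probes, probe 2, with -2.00 ± 0.21 (limma adjusted p = 2e-07), while probe 1 had -0.56 ± 0.20 (limma adjusted p = 0.0568) and probe 3 had 0.46 ± 0.34 (limma adjusted p = 0.461).

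**Figure D3:**
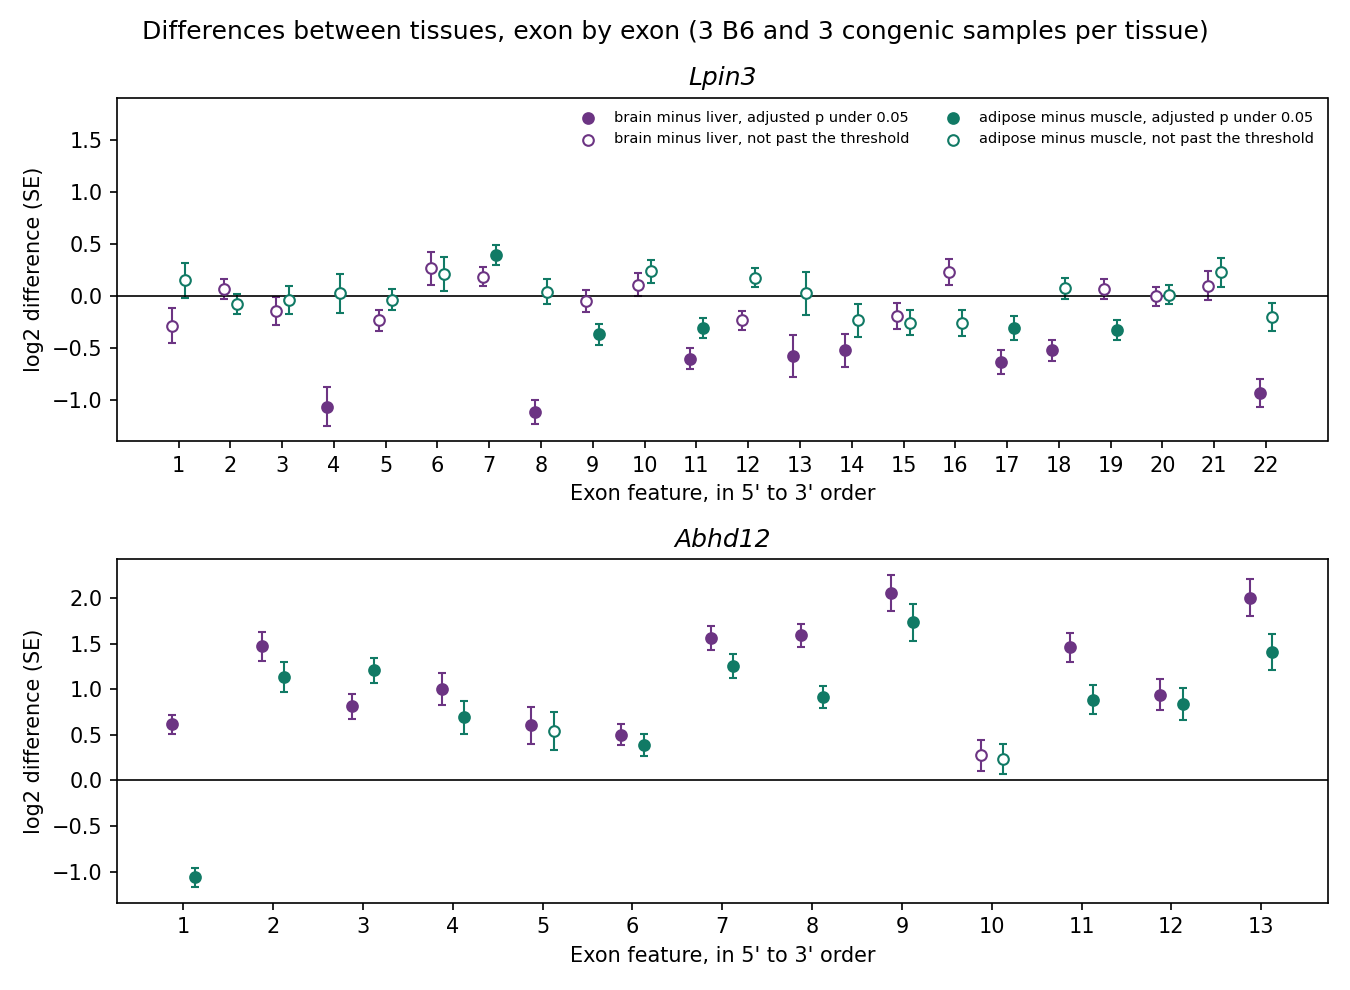
Difference in log2 intensity between brain and liver (purple) and between adipose tissue and muscle (green) for each exon feature of Lpin3 and Abhd12, numbered along the transcript, with SE bars from 6 samples per tissue. Filled points passed an adjusted p of 0.05. Most Abhd12 points lie above 0 except exon feature 1 at -1.06, and most Lpin3 points lie near 0 except exon features 4, 8 and 22 near -1 between brain and liver.

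Single probes of Abhd12 also varied within an exon. Of 39 probes, 27 were higher in brain than in liver and 1 was lower, against 10% and 8.85% of all probes. In exon feature 9, probes 25 and 27 differed by 2.27 ± 0.23 and 2.94 ± 0.31 between brain and liver, while probe 26 differed by 0.22 ± 0.14. Exon feature 10, which did not pass as a whole, held probe 30 at 2.71 ± 0.33 beside probes 28 and 29 at 0.14 ± 0.27 and 0.33 ± 0.16. Between adipose tissue and muscle 23 of the 39 probes were higher in adipose tissue and 1 was lower, against 8.53% and 9.17% of all probes, and probe 30 had 2.60 ± 0.33.

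Between genotypes, Abhd12 did not pass in any tissue. In adipose tissue the congenic samples, at 10.08 to 10.25, did not overlap with the B6 samples, at 9.63 to 10.01, and the difference was 0.33 ± 0.15 (limma adjusted p = 0.564), or 0.32 without the 2 arrays high in Svs4 (limma adjusted p = 0.885). A separation with the congenic samples higher was found for 5.28% of genes there. The other tissues had -0.00 ± 0.15 in brain, -0.08 ± 0.15 in liver and -0.06 ± 0.15 in muscle (limma adjusted p = 0.991, 0.878 and 0.947). In adipose tissue 12 of the 13 exon features and 34 of the 39 probes had a positive difference, and 0 of either were called, against 0.419% of all exon features and 0.448% of all probes. The exon feature with the smallest p was 4, at 0.84 ± 0.25 (limma adjusted p = 0.276).

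**Figure D4:**
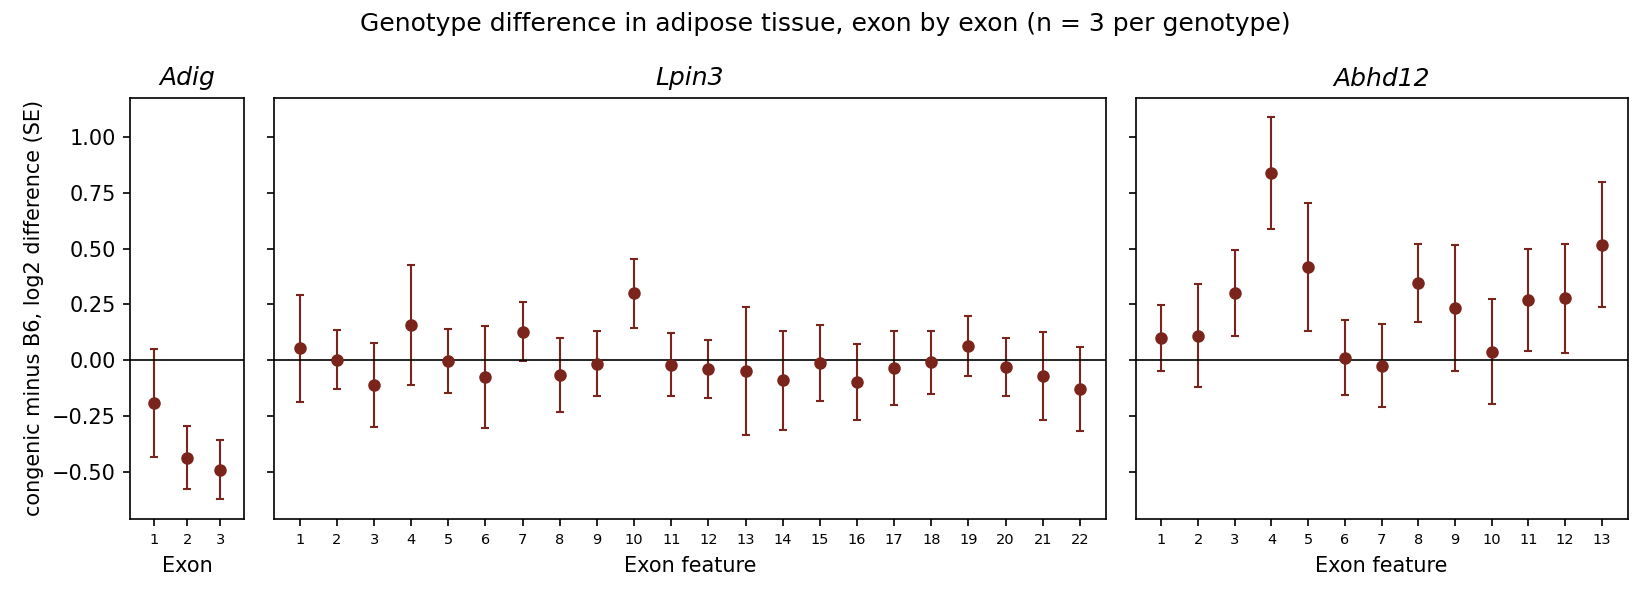
Congenic minus B6 difference in log2 intensity in adipose tissue for each exon feature of Adig, Lpin3 and Abhd12, with SE bars (n = 3 per genotype). All 3 exons of Adig are below 0, from -0.49 to -0.19, Lpin3 lies about 0, and 12 of 13 exon features of Abhd12 are above 0, with no single exon feature past the threshold.

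Lpin3 was nearly flat at the gene level, with a small excess in liver. Its levels in liver were 10.02, 9.98 and 9.93 in B6 and 10.01, 9.98 and 9.97 in congenic samples. Those in brain were 9.74, 9.87 and 9.76 in B6 and 9.89, 9.80 and 9.87 in congenic samples, all below liver. Brain minus liver was -0.16 ± 0.03, a 1.12-fold difference (limma adjusted p = 0.00120), where 17% of genes were lower in brain. It was -0.25 with median scaling and -0.28 with the mean of the exon features (limma adjusted p = 4e-05 and 5.4e-07). The same difference was -0.19 ± 0.05 within B6 and passed, with 10.6% of genes lower, and was -0.13 ± 0.05 within congenic samples and did not, with 11.4% lower (limma adjusted p = 0.00897 and 0.0562). Adipose tissue and muscle, from 9.75 to 9.91, overlapped and differed by -0.04 ± 0.03 (limma adjusted p = 0.347). Liver was 0.14 ± 0.03 above the mean of the other 3 tissues, a contrast that crosses the slides (limma adjusted p = 0.000502, with 16.1% of genes higher). The differences of brain from adipose tissue and from muscle, which also cross the slides, did not pass (limma adjusted p = 0.890 and 0.255).

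No genotype difference of Lpin3 was called. Brain had 0.06 ± 0.05, liver 0.01 ± 0.05, adipose tissue -0.02 ± 0.05 and muscle 0.02 ± 0.05 (limma adjusted p = 0.713 to 0.999), and without the 2 arrays high in Svs4 adipose tissue had -0.01 and muscle 0.04, neither past the threshold. Of its 22 exon features and 120 probes, 0 were called between genotypes in any tissue. Of all exon features 0.419% were called in brain, 0.904% in liver, 0.419% in adipose tissue and 0.387% in muscle, and of all probes 0.471%, 0.799%, 0.448% and 0.418%. In adipose tissue 6 exon features had a positive and 16 a negative difference, with a median of -0.03.

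The gene-level value of Lpin3 hid exons that differed strongly. Between brain and liver, 8 of 22 exon features were lower in brain and 0 were higher, against 13% and 14.7% of all exon features. The largest differences were -1.12 ± 0.12 for exon feature 8 (160960363 to 160960715), -1.07 ± 0.19 for exon feature 4 (160957342 to 160957438) and -0.93 ± 0.13 for the last exon, 22 (160968606 to 160969141). The log2 intensities of exon feature 8 were 10.94, 10.71 and 11.10 in B6 liver and 10.75, 11.03 and 10.67 in congenic liver. In brain they were 9.56, 9.90 and 9.71 in B6 and 9.85, 9.75 and 9.72 in congenic samples. All liver samples were above all brain samples there, and adipose tissue and muscle, from 9.02 to 9.77, overlapped with brain.

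Exon feature 4 of Lpin3 was less even among the congenic livers. It read 10.26, 10.90 and 10.96 in B6 and 10.19, 9.41 and 11.18 in congenic liver, so congenic liver replicate 2 lay within the range of brain, 9.31 to 9.53. Unequal differences among the exons of Lpin3 were called between brain and liver and between adipose tissue and muscle (limma diffSplice adjusted p = 1.8e-24 and 0.000111), as for 68.8% and 64.3% of genes. Between genotypes they were not called in liver (adjusted p = 0.443, with 21.3% of genes called) or in adipose tissue (adjusted p = 1).

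Between adipose tissue and muscle, 1 of the 22 exon features of Lpin3 was higher in adipose tissue and 4 were lower, against 12.5% and 16.1% of all exon features. Exon feature 7 (160960098 to 160960219) had 0.39 ± 0.09 and exon feature 9 (160961978 to 160962078) -0.37 ± 0.10 (limma adjusted p = 0.00266 and 0.00896), the ends of the range. None of the 3 exon features with the largest brain to liver differences passed here.

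The value table held Lpin3 as 2 transcripts of 60 probes each, which share 18 exons and differ in the first exon and in the start of a later one. The shared exons were read in duplicate rows on each array, and the rows of an exon had an SD of 0.18 (log2) about their mean over 18 exons and 24 arrays. Over 1 log2 unit higher in liver than in the mean of the other tissues were 5 of 60 probes in one transcript and 6 of 60 in the other, 4 of them at the same place in both, against 4.78% of all probes. Over both transcripts, 22 of 120 probes were lower in brain than in liver and 2 were higher, against 8.85% and 10% of all probes. In exon feature 8, 1 of 3 probes carried the difference. Probe 19 differed by -2.18 ± 0.20 and -2.34 ± 0.19 between brain and liver in the 2 transcripts, while its neighbours in the exon ran from -0.55 to 0.44 and did not pass.

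Probe 19 of Lpin3 read 12.84, 11.83 and 12.78 in B6 liver and 12.54, 11.88 and 13.07 in congenic liver in the first transcript. Its brain values were 10.51, 9.96 and 10.46 in B6 and 10.08, 10.62 and 10.22 in congenic samples. The second transcript gave 12.03 to 12.75 in liver and 9.76 to 10.42 in brain, so the liver samples stood clear of brain in both readings. The last exon and exon feature 17 were alike, with probe 59 at -2.33 ± 0.21 and -1.88 ± 0.21 and probe 45 at -1.92 ± 0.22 and -1.65 ± 0.26 between brain and liver in the 2 transcripts. The remaining probes of those exons did not pass.

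No difference between the tissues of a slide was called for the alternative first exons of Lpin3. The upstream one (160944081 to 160944145) had -0.29 ± 0.17 between brain and liver and the downstream one (160951519 to 160951566) 0.07 ± 0.09 (limma adjusted p = 0.216 and 0.656). Between adipose tissue and muscle they had 0.15 ± 0.17 and -0.08 ± 0.09 (limma adjusted p = 0.581 and 0.572). The starts of these exons lie 7438 bases apart in the files, and the 2 starts that RefSeq gives for Lpin3 lie 7498 bases apart.

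The 250 bases before each RefSeq start of Lpin3 (GRCm38.p6, plus strand) are shown since the array measured a first exon for each, with CG dinucleotides in capitals. They are chr2:160880420-160880669 and chr2:160887918-160888167.
Lpin3 upstream start: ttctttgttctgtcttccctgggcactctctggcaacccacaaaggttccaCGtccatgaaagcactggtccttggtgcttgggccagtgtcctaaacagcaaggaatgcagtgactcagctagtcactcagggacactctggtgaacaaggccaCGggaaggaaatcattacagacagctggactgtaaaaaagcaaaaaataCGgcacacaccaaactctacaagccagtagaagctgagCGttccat
Lpin3 downstream start: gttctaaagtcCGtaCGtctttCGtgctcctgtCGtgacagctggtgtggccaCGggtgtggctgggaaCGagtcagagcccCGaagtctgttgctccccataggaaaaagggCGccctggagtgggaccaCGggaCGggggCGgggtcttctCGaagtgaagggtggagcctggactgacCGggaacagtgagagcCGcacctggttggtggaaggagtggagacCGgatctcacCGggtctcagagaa
The upstream window holds 4 CG and the downstream window 16, and the median over the 32851 promoters of the same length was 6. At least as many CG were found in 62.2% and 25.4% of them. AGGTCA on either strand was in neither window.

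Other genes of glycerolipid, phospholipid and fatty acid metabolism gave a mixed picture. Of 33 listed genes 13 were measured, Lpin3 and Abhd12 among them. Between brain and liver, 4 were higher in brain, Abhd12, Ggt7, Pigu and Plcg1, and 4 were lower, Lpin3, Acot8, Fitm2 and Ptgis, with a list median of 0.04 against -0.01 over all genes. Of all genes 17.3% were higher and 17% lower in brain. Acot8, a peroxisomal acyl-CoA thioesterase, had -0.39 ± 0.07 and Ptgis, prostacyclin synthase, -0.22 ± 0.04. Between adipose tissue and muscle, 4 were higher in adipose tissue, Abhd12, Pltp, Ptgis and Serinc3, and 3 were lower, Acss1, Acss2 and Pigu, with a list median of -0.03 against -0.04 over all genes. Of all genes 15.8% were higher and 19.4% lower in adipose tissue. Acss1 and Acss2, the mitochondrial and cytosolic acetyl-CoA synthetases, had -0.36 ± 0.07 and -0.23 ± 0.05.

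Between genotypes the lipid list had 1 call in adipose tissue, 1 in muscle and 0 in brain and liver. Of all genes 1.47% were called in adipose tissue, 0.587% in muscle and 0.88% each in brain and liver. Both calls on the list were Serinc3, a serine incorporator family membrane protein. Serinc3 fell by 0.92 ± 0.14 in adipose tissue and by 0.76 ± 0.14 in muscle (limma adjusted p = 0.00111 and 0.00655). Without the 2 arrays high in Svs4 it fell by 0.78 and 0.77 (limma adjusted p = 0.00684 and 0.0105), and Pltp, as above, then passed as well. The list median in adipose tissue was 0.02, against 0.00 over all genes.

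Of 18 listed adipocyte genes 6 were measured. Adig, Lep, Nnat and Pltp were higher in adipose tissue than in muscle and Acss2 was lower, with a list median of 0.39 against -0.04 over all genes. Of all genes 15.8% were higher and 19.4% lower in that comparison. Nnat, the imprinted gene of neuronatin, had 1.09 ± 0.15 and Lep 0.32 ± 0.11. Between genotypes in adipose tissue Adig was the 1 gene of the 6 called over all arrays, against 1.47% of all genes. The list median was -0.05.

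The genes whose 8 group means most resembled those of Adig were Defb21, Cstdc2 and BC049753, with Pearson correlations of 0.95, 0.93 and 0.93 over 8 points. Defb21 is also on the list of epididymis, testis and seminal vesicle genes, and Cstdc2 fell by 0.90 ± 0.20 in congenic adipose tissue (limma adjusted p = 0.0198), or by 0.83 without the 2 arrays high in Svs4 (limma adjusted p = 0.0290). For Lpin3 they were Sla2, Rab5if and Matn4 (0.95, 0.95 and 0.94), and for Abhd12 Nnat, Zmynd8 and Ywhab (0.96, 0.93 and 0.89). The points share arrays and slides. Among the 3 genes themselves the correlation was 0.30 between Adig and Abhd12, -0.37 between Adig and Lpin3 and -0.77 between Lpin3 and Abhd12.

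Of the 18 genes next to the 3 on the array, 3 on each side, 0 were called between genotypes in adipose tissue, liver or muscle. The shares over all genes were 1.47%, 0.88% and 0.587% there. In brain 1 was called, against 0.88% of all genes. That gene was Snhg11, the second upstream of Adig, with -0.59 ± 0.13 in congenic brain (limma adjusted p = 0.0375). With the 2 arrays high in Svs4 left out of the fit, which hold no brain sample, it did not pass (limma adjusted p = 0.0712). Ralgapb and an unnamed transcript, the nearest on each side of Adig, were not called in any genotype contrast.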

How the data were processed

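The deposited per-sample files hold linear scanner intensity values, 1 mean per exon row, per the file headers. The deposited value table holds intensity values per probe with column medians between 438.6 and 441.3. The submitters' processing notes name RMA, with no version. The genome build of the coordinates is not given in the sources used here.

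Exon intensities were corrected with normexp (offset 50) and quantile normalized over 24 arrays. They were taken to log2, averaged over rows with the same coordinates and summarised per gene by median polish. A mean for each of the 8 groups was fitted with limma 3.58.1 in R 4.3.3, all groups sharing 1 estimate of the spread. The threshold was an adjusted p (Benjamini-Hochberg) under 0.05 over all genes, exon features or probes, and diffSplice tested exon usage. The value table was fitted per probe on the log2 scale. The series design text states 3 biological replicates, and the 3 arrays per group limit the precision. Figures were drawn with matplotlib 3.10.9.

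The 3 genes, the gene lists, the markers and the rule for named genes were chosen with earlier results of these data known. Besides the 3 genes, the rule named the listed genes past the threshold and, for each of the 3, the 3 genes with the most similar group means. The list genes are named here for the genotype contrasts and the contrasts within a slide. Symbols came from the platform annotation, updated by gene ID through RefSeq.

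In a comparison of scanner files with value table columns, 7 of 24 files were closest to their own replicate, 17 to another replicate of the same group and 0 to another group. Exon rows and the probes assigned to them in identifier order had a correlation of 0.987. The fit was tested on simulated data with known changes. The alternatives were other background corrections and normalizations, the value table, the mean of exon features, a filter on dim features, the tissue's own 6 samples, replicate and well row blocks, and leaving out arrays.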

Additional observations from a re-analysis of the deposited data

How the results depend on the processing

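The 4 tissue differences within a slide that passed for the 3 genes over both genotypes kept their direction and their side of the threshold in the 10 alternatives and the 24 fits without 1 array. Over the 10 alternatives, Adig between adipose tissue and muscle ran from 0.37 to 0.62, Abhd12 from 0.69 to 0.96 there and from 0.72 to 1.35 between brain and liver, and Lpin3 from -0.28 to -0.13 between brain and liver. The tissue differences of other genes and those within 1 genotype were not recomputed. Adig in congenic adipose tissue ran from -0.54 in the authors' value table to -0.33 with no background correction and stayed past the threshold in 10 of 11 alternatives. The exception was the fit with a replicate block within tissue (-0.39, limma adjusted p = 0.0616). The replicate numbers were not taken to pair the samples: the deviations of same-numbered samples correlated from -0.44 to 0.51 over 12 pairs, over 0.1 in 5 of them, and at 0.51, 0.23 and 0.09 in adipose tissue. Leaving out 1 array at a time gave -0.42 to -0.35 and lost the call for 2 of 24 arrays, both of adipose tissue. The mean of the Adig difference over tissues did not pass in 10 of 10 alternatives and passed in 4 of 24 fits without 1 array. The genes called between genotypes in adipose tissue, 5 in all, became 9 in the value table, 10 without the 2 arrays high in seminal vesicle genes and 3 with only the tissue's 6 samples, with the replicate block or with a well row block, and 1 to 7 without 1 array. Those called in the mean over tissues, 7 in all, became 16 in the value table, 15 with the mean of exon features, 13 with the replicate block and 4 without dim exon features, and 4 to 13 without 1 array. The cause of these shifts was not tested, beyond the fewer samples or features some settings use. The files hold no detection call, so how far the levels of the 3 genes lie above background is not known here.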
